A study of Mus musculus with 3 samples.

Results

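Fibroblasts transfected with siRNAs against Bard1 and then reprogrammed (siBard1) were represented by 3 libraries, numbered 1 to 3, which were identified by the column names of the count table. They were 3 of the 127 libraries kept after quality control, out of 129 libraries with counts. They were compared with the 3 libraries of a non-targeting siRNA (nt) that carried the same replicate numbers, and with 5 mock-transfected libraries (Mock) as a second control. The Mock libraries carried the numbers 1A, 1B, 2A, 2B and 3B, so those that share a number may be repeat libraries of 1 culture, and the 5 counts libraries. The 3 siBrca1 libraries, and 3 libraries each of day 0 (Day00) and day 6 (Day06) of an untransfected time course, served as further points of comparison.

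BARD1 is the obligate RING-domain partner of BRCA1. Together the proteins form a ubiquitin ligase that modifies histone H2A on nucleosomes and acts in homologous recombination, the repair of broken DNA from an intact copy. Reprogramming with Oct4, Sox2, Klf4 and c-Myc (OSKM) takes fibroblasts through a mesenchymal-to-epithelial transition, in which the contractile actin cytoskeleton and the fibroblast matrix are lost before pluripotency genes switch on.

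The question posed by the comparison was how the transcriptome of reprogramming cells changes when a chromatin-associated factor, here BARD1, is depleted at the start. All cells were primary mouse embryonic fibroblasts of the BL6 strain with a wild-type genotype, transduced for 24 h at a multiplicity of infection of 1 with a doxycycline-inducible OSKM cassette (STEMCCA) and rtTA, and reprogrammed at passage 2. The siRNA groups received 40 nM of pooled siRNAs by reverse transfection, were replated 24 h later and were induced with 2 µg/mL doxycycline in medium holding 3 µM chiron, a GSK3 inhibitor, 0.25 µM Alk5i, an inhibitor of the TGF-beta receptor, 50 µg/mL ascorbic acid and LIF. This medium was given to control and siRNA groups alike. Day 0 was the start of induction, so between Day00 and Day06 doxycycline and the inhibitors cannot be told apart from time. The time course cells were replated without transfection. RNA of the siRNA groups was taken on day 6. The cultures were mixed populations of cells at different stages, and in such bulk RNA a smaller number of cells of a type cannot be told apart from less RNA per cell. The transfections were made in triplicate. Whether these came from separate embryos or fibroblast preparations is not given in the sources used here. The p-values measure the spread between libraries of the same condition. That spread was estimated jointly over the 127 kept libraries of 42 conditions, not from the compared groups alone.

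The siRNAs are shown because they define the perturbation. The pool held a further duplex that was not analysed here. The 2 duplexes against Bard1 in the study's siRNA table, as used here, are given below as sense and antisense strands, 5′ to 3′, with the seed of the antisense strand (bases 2 to 8) in capitals.
siRNA 1 sense: ggaugugagcacaucuucutt
siRNA 1 antisense: aGAAGAUGugcucacaucctc
siRNA 2 sense: ccucaagauaaaccgacaatt
siRNA 2 antisense: uUGUCGGUuuaucuugaggtc

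Both target sites lie in coding sequence of Bard1, a gene of 11 exons on the minus strand of chromosome 1 (GRCm38, chr1:71027498-71103146). The site of siRNA 1 was bases 514 to 532 of a transcript of 5659 bases, in exon 2 (chr1:71089475-71089493). The site of siRNA 2 was bases 603 to 621, in exon 3 (chr1:71088167-71088185). The 19 bases of each duplex matched in full in 0 other genes of the annotation, a check that does not cover the whole pool.

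Sequencing was shallow, which limits what can be seen of rare transcripts. The siBard1 libraries held 77282, 68229 and 152976 counted molecules in replicates 1, 2 and 3, and the nt libraries 75100, 80136 and 143156. The 5 Mock libraries held 38925 to 83089, and the 127 kept libraries 29656 to 235292 with a median of 73279. Levels below are CPM, counts per 1000000 molecules of the 3013 genes tested, adjusted between libraries by edgeR's TMM factors.

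The targeted gene could not be followed at this depth. Bard1 had 0 counts in each of the 3 siBard1 libraries. It had 2, 0 and 0 counts in the nt libraries and 0, 1, 2, 0 and 0 in the Mock libraries. At the rate of the nt libraries 2.06 counts would be expected in siBard1, so that a count of 0 allows a level of up to 1.79 times that of nt (exact Poisson upper 95% limit, counting error only). Against the 103 other siRNA and control libraries, with 37 counts in all, the limit was 2.92. Brca1, the partner, had 1, 1 and 2 counts in siBard1 against 0, 1 and 1 in nt, and Wdr5, encoding a chromatin factor also targeted in the screen, had 0, 5 and 1 against 2, 3 and 4. The level of the target is therefore no check of the label siBard1.

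Across all genes, 311 of 3013 differed between siBard1 and nt, which is 10.3% of those tested (edgeR's quasi-likelihood test with the replicate number as a block, Benjamini-Hochberg adjusted p under 0.05, n = 3 libraries per group). Of these, 167 were higher in siBard1 (5.54% of the genes tested) and 144 were lower (4.78%). Among characterised genes with a mean of at least 100 CPM in siBard1 or nt, the 12 with the largest rise were Myl9, Palld, Gorasp2, Cdsn, Cnn2, Acta2, Pmp22, Timp3, Fbn2, Zbtb20, Ttc28 and Puf60. The 12 of these with the largest fall were Kif11, Usp16, mt-Td, Bnip3, Mrps22, Abce1, Hmgn5, Paip2, Eef1e1, Higd1a, Pgk1 and Ilf2. Not all of these calls held when libraries were left out. Without all libraries of replicate 3, Paip2 stood at -1.24 (adjusted p = 0.508) and Ttc28 at 1.77 (adjusted p = 0.294). Without those of replicate 1, Mrps22 stood at -1.11 (adjusted p = 0.422) and Eef1e1 at -1.55 (adjusted p = 0.147). Without those of replicate 2, Ilf2 stood at -1.34 (adjusted p = 0.341) and Pmp22 at 1.98 (adjusted p = 0.124). The risen genes were led by parts of the contractile cytoskeleton (Myl9, Palld, Cnn2 and Acta2) and of the matrix (Timp3 and Fbn2), while the fallen ones held a mitotic motor (Kif11), a glycolytic enzyme (Pgk1) and low-oxygen genes (Bnip3 and Higd1a). The number of calls rested on the processing and on the third replicate. It was 39 with limma on the deposited log2 values, 94 with no filter on low counts and 178 without the block. It was 152 without siBard1 replicate 3, 168 without nt replicate 3 and 94 without all libraries of replicate 3, against 185 without all libraries of replicate 1 and 175 without those of replicate 2.

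**Figure D1:**
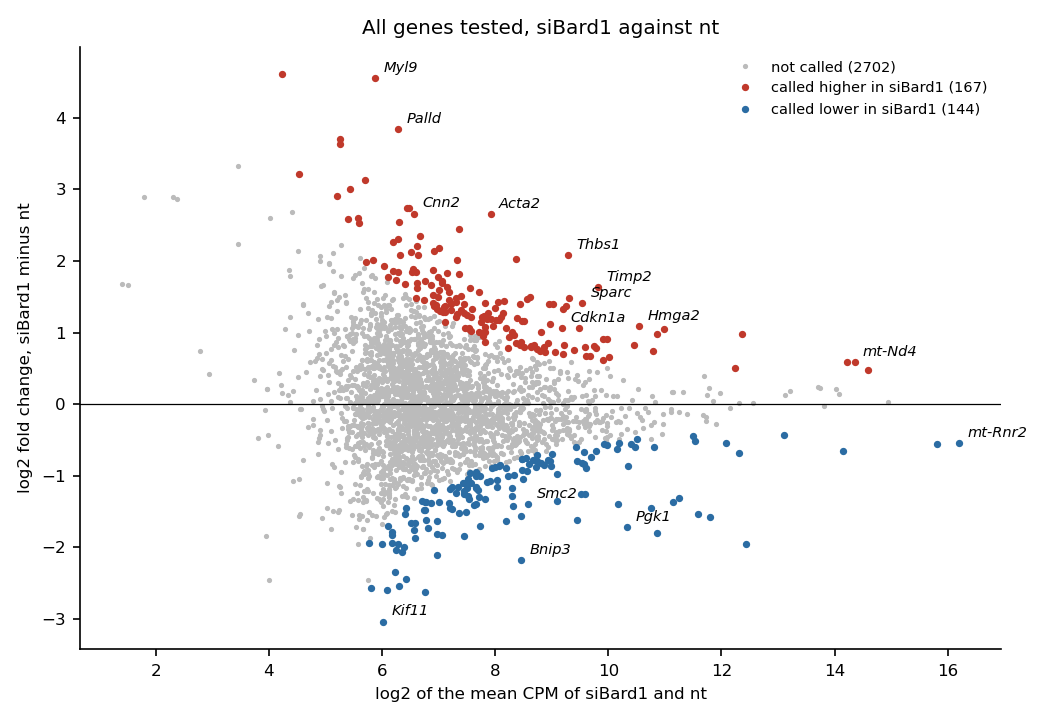
Log2 fold change of siBard1 over nt (y axis) against the log2 of the mean CPM of both groups (x axis) for the 3013 genes tested. The 167 genes called higher and the 144 called lower are coloured and lie on both sides of 0 across the range of levels.

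Many actin cytoskeleton and contraction genes rose. Of 50 listed genes, 33 had enough counts to be tested, 14 of them were higher in siBard1 than in nt and 0 were lower, against 5.54% and 4.78% of all genes, the background for every list compared with nt. The median log2 fold change of the 33 was 1.13, against -0.0238 over all genes tested. The other members were too low to be tested.

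Acta2, the smooth muscle actin of contractile fibroblasts, measured 575, 291 and 389 CPM in siBard1 replicates 1, 2 and 3. It measured 83.3, 59.8 and 57.2 CPM in nt. In Mock it measured 77.4, 137, 144, 49.7 and 44.8 CPM. Every siBard1 library lay above every control library, and the log2 fold change was 2.65 ± 0.39 (SE; adjusted p = 1.68e-08) against nt and 2.32 (adjusted p = 5.25e-07) against Mock. Cnn2, a calponin that binds actin filaments, measured 208, 120 and 160 CPM in siBard1 and 33.3, 29.9 and 16.3 CPM in nt. Its log2 fold change was 2.66 ± 0.57 (adjusted p = 0.000325), with no overlap of siBard1 and nt. In Mock, Cnn2 measured 0, 103, 0, 0 and 134 CPM, which overlapped siBard1. Without all libraries of replicate 3 its log2 fold change over nt was 2.28 (adjusted p = 0.0541).

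Myl9, a regulatory light chain of non-muscle and smooth muscle myosin, measured 95.8, 34.3 and 215 CPM in siBard1 and 0, 0 and 8.17 CPM in nt. Those nt values stand for 1 molecule in all, and siBard1 was 36.7 times as high (exact conditional 95% interval of the counts, 6.21 to 1490). Palld, which organises actin bundles, measured 176, 171 and 97.2 CPM in siBard1 and 0, 15.0 and 8.17 CPM in nt, 16.5 times the level of nt (counting interval 4.23 to 141). The direction of both genes against nt was plain, and their size was not. In Mock, Palld measured 103, 0, 86.5, 0 and 14.9 CPM, which overlapped siBard1. Myl9 measured 25.8, 0, 0, 0 and 29.9 CPM in Mock, below every siBard1 library. The call of Myl9 was lost without all libraries of replicate 3, at a log2 fold change of 4.83.

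The abundant members rose by less. Actb, the general cytoplasmic actin, measured 2763, 2330 and 2221 CPM in siBard1 and 1532, 1406 and 882 CPM in nt (log2 fold change 0.98 ± 0.18, adjusted p = 1.01e-05). Actg1, the other cytoplasmic actin, rose by 0.91 ± 0.20 and Cfl1, the filament-severing cofilin, by 0.82 ± 0.21. The remaining called members were Cnn1, Tagln, Flna, Actn1, Lima1, Cald1 and Tpm4, which encode proteins that bind, cross-link or stabilise filaments. Their log2 fold changes ran from 0.72 for Tpm4 to 3.63 for Cnn1, and Cnn1 and Tagln were at 0 in part of the nt libraries. Tagln measured 15.97, 17.1 and 90.3 CPM in siBard1, and without siBard1 replicate 3 its log2 fold change was 1.66 (adjusted p = 0.621), and 2.41 (adjusted p = 0.28) without nt replicate 3. When libraries were left out it ran from 0.85 to 5.41 for Tagln, which lost its call in 5 of 9 fits, and from 3.09 to 5.51 for Cnn1, which lost it in 4. Actg1 shares the 3′ end of its transcript with 7 near-identical copies in the annotation and Actb with 1, so their counts may be split among copies. Against Mock, 16 of the 33 members were higher and 0 were lower, at backgrounds of 4.68% and 5.64%. Without all libraries of replicate 3 the number called against nt was 5.

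**Figure D2:**
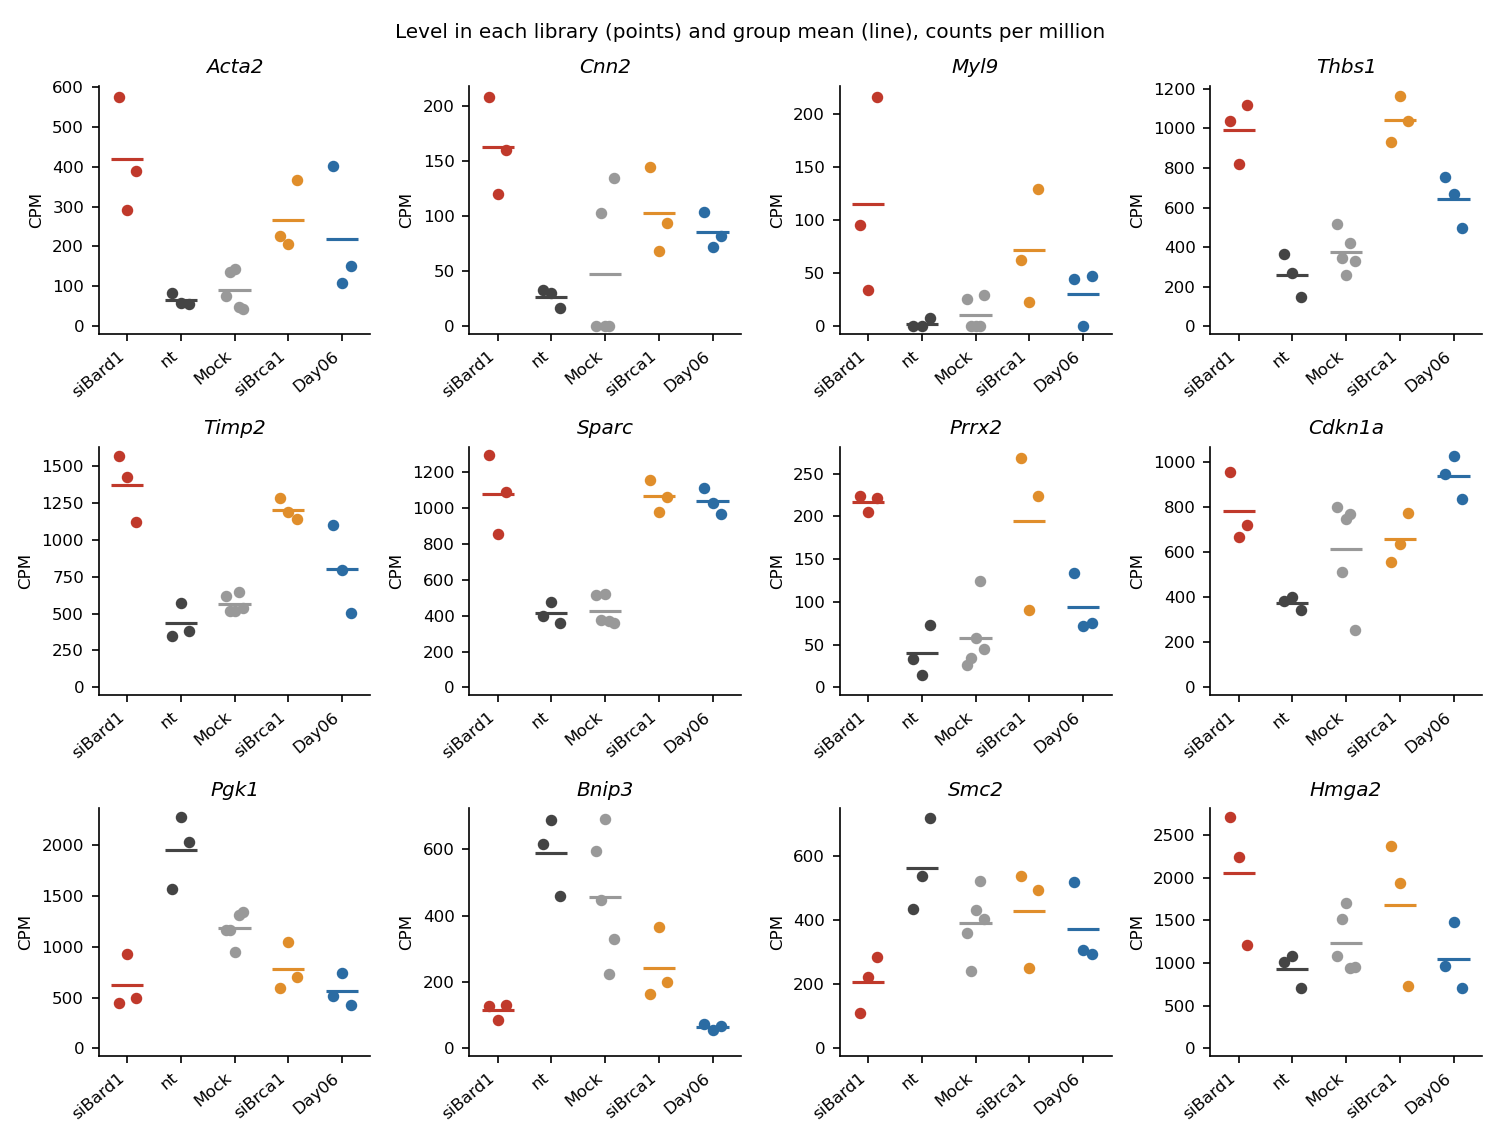
CPM of 12 genes in each library (points, y axis from 0) with the mean of each group as a line, for siBard1, nt, Mock, siBrca1 and Day06. Acta2, Thbs1, Timp2, Sparc and Prrx2 are higher in each siBard1 library than in each nt and Mock library, and Pgk1 and Bnip3 are lower.

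Part of the fibroblast and extracellular matrix genes rose in the same comparison. Of 49 listed genes 38 were tested, 14 were higher in siBard1 than in nt, 0 were lower and 24 did not pass the test, with a median log2 fold change of 1.04. Against Mock, 10 were higher and 0 were lower, with a median of 0.597.

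Thbs1, the matricellular protein thrombospondin-1, measured 1038, 822 and 1118 CPM in siBard1 and 366, 269 and 147 CPM in nt. In Mock it measured 516, 343, 259, 422 and 328 CPM. The siBard1 libraries were above all nt and Mock libraries, and the log2 fold change was 2.08 ± 0.25 (adjusted p = 7.49e-12) against nt and 1.46 (adjusted p = 1.26e-07) against Mock. Timp2, an inhibitor of matrix metalloproteinases, measured 1565, 1422 and 1118 CPM in siBard1 and 350, 568 and 384 CPM in nt. Its log2 fold change was 1.63 ± 0.21 (adjusted p = 2.48e-10), and the groups did not overlap. Sparc, a collagen-binding glycoprotein, measured 1293, 857 and 1090 CPM against 400, 479 and 360 CPM (1.41 ± 0.22, adjusted p = 7.69e-08).

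The other called matrix genes were the metalloproteinase inhibitors Timp1 and Timp3, the collagens Col1a1, Col1a2, Col8a1 and Col12a1, the collagen cross-linking enzyme Lox, tenascin C (Tnc), the fibroblast surface protein Thy1, the lectin Lgals1 and the intermediate filament Vim. Their log2 fold changes ran from 0.67 for Vim to 2.91 for Lox. Lox rested on few molecules, with 0, 0 and 16.3 CPM in nt, and its change against Mock was 0.56 (adjusted p = 0.664). When libraries were left out, Lox ran from 2.43 to 5.44 and lost its call in 6 of 9 fits, and Col8a1 ran from 1.56 (without nt replicate 3, adjusted p = 0.379) to 5.61 and lost its call in 7. Tnc stood at 0.83 (adjusted p = 0.594) without all libraries of replicate 3, at 1.40 (adjusted p = 0.218) without siBard1 replicate 3 and at 1.06 (adjusted p = 0.33) without nt replicate 3. Vim lost its call in 5 of the 9 fits (adjusted p up to 0.156), Col12a1 in 4 (up to 0.184), and Col1a1 and Thy1 in 3 each (up to 0.317 and 0.148). In the fit without all libraries of replicate 3, 4 of the 38 members were called higher than nt.

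Transcription factors of mesenchymal cells showed the same direction. Of 25 listed factors 11 were tested, 5 were higher in siBard1 than in nt (Prrx2, Id1, Tcf4, Prrx1 and Hmga2) and 0 were lower, with a median of 1.16. Prrx2, a homeobox factor of limb and craniofacial mesenchyme, measured 224, 206 and 222 CPM in siBard1 and 33.3, 15.0 and 73.5 CPM in nt (log2 fold change 2.18 ± 0.45, adjusted p = 0.000162). Hmga2, an architectural chromatin protein of embryonic mesenchyme, measured 2715, 2245 and 1208 CPM in siBard1 and 1016, 1077 and 703 CPM in nt (1.09 ± 0.19, adjusted p = 3.26e-06). Neither gene overlapped between the groups. Other regulators of the mesenchymal state did not pass the test against nt. Zeb1, a repressor of epithelial genes, measured 160, 68.5 and 118 CPM against 150, 59.8 and 16.3 CPM, and Twist2 measured 287, 103 and 132 CPM against 99.9, 59.8 and 81.7 CPM (log2 fold changes 0.91 and 1.02, adjusted p = 0.283 and 0.0982).

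Of the TGF-beta response genes, only 7 of 28 were abundant enough to test, 2 were higher and 0 lower than nt, against 5.54% and 4.78% of all genes, and the median was 1.37. Pmepa1, a feedback inhibitor of the pathway, rose by 3.70 ± 0.99 from 1 molecule in nt (ratio 18.8, counting interval 3.01 to 780), and Fstl1, a secreted modulator, by 0.81 ± 0.25. Without nt replicate 3, and without all libraries of replicate 3, 0 members were called. In the latter fit the log2 fold change was 2.69 for Pmepa1 (adjusted p = 0.281) and 0.59 for Fstl1 (adjusted p = 0.39).

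Promoters of the called cytoskeletal genes are shown because many genes of this class are known targets of serum response factor, whose binding element is the CArG box. In RefSeq promoter windows of 300 bases (250 before and 50 after each start, GRCm38.p6) a CArG box was found in 4 of the 12 called members with a window (33.3%). It was found in 9 of 43 of all listed members (20.9%), in 46 of 1921 of the tested genes (2.39%) and in 488 of 27025 of all windows (1.81%). Among all genes higher in siBard1 it was found in 6 of 122 (4.92%), and among those lower in 2 of 65 (3.08%). Of those 6 risen genes, 4 were the called members of the actin list. The element reads the same class of letters on both strands, so each was counted once. The 4 are given 5′ to 3′ on the strand of the gene with the match in capitals.
Myl9 (chr2:156775278-156775337, plus strand, 161 bases before the start): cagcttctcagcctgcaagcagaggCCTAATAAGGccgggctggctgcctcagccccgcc
Cnn2 (chr10:79988519-79988578, plus strand, 56 bases before the start): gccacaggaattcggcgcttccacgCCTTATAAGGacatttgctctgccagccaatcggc
Actg1 (chr11:120348551-120348610, minus strand, 90 bases before the start): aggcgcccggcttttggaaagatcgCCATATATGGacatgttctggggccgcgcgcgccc
Lima1 (chr15:99820162-99820221, minus strand, 47 bases before the start): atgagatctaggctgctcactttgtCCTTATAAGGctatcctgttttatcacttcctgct

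Some genes of glycolysis and of the response to low oxygen were lower in siBard1. Of 34 listed genes 15 were tested, 0 were higher, 5 were lower than nt (Bnip3, Higd1a, Pgk1, Tpi1 and Ldha) and 10 did not pass the test, with a median log2 fold change of -0.735. Against Mock 4 were lower, 0 were higher and the median was -0.582.

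Pgk1, the phosphoglycerate kinase of glycolysis, measured 447, 925 and 500 CPM in siBard1 and 1565, 2273 and 2026 CPM in nt. In Mock it measured 1161, 1167, 951, 1316 and 1343 CPM. The siBard1 libraries lay below all control libraries, and the log2 fold change was -1.71 ± 0.20 (adjusted p = 5.12e-13) against nt and -1.01 (adjusted p = 7.22e-05) against Mock. Bnip3, a mitochondrial protein that promotes mitophagy, measured 128, 85.7 and 132 CPM in siBard1. It measured 616, 688 and 458 CPM in nt and 594, 446, 692, 223 and 328 CPM in Mock. The groups again did not overlap (log2 fold change -2.18 ± 0.31, adjusted p = 1.12e-08 against nt, and -1.75, adjusted p = 2.25e-05 against Mock).

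Tpi1, the triosephosphate isomerase, fell by 1.42 on the log2 scale (SE 0.28) and Ldha, the lactate dehydrogenase, by 0.83 (SE 0.20), both also called against Mock. Higd1a, a low-oxygen gene of the inner mitochondrial membrane, fell by 1.76 (SE 0.53), and its change against Mock was -1.14 (adjusted p = 0.223). Aldoa, the glycolytic aldolase, measured 543, 891 and 424 CPM against 583, 763 and 482 CPM (adjusted p = 0.963), and did not pass the test. Without all libraries of replicate 3 only 2 of the 15 members were called, with Ldha at -0.72 (adjusted p = 0.101) and Tpi1 at -1.17 (adjusted p = 0.0613). Pgk1 and Bnip3 each have 2 near-identical copies in the annotation and Higd1a has 1, among which their counts may be split.

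The letters ACGTG, known as the core that hypoxia-inducible factors bind, were searched on both strands of the same promoter windows, with CACGTG, which holds them on both strands, counted once per window. They were found in 4 of the 5 called members (80%) and in 23 of 30 of all listed members (76.7%), against 33.1% of the tested genes and 21.8% of all windows. They were found in 29.5% of all genes higher and 24.6% of all genes lower in siBard1. The first match in 3 called members is given below in capitals, 5′ to 3′ on the strand of the gene, where CACGT is the same core read on the other strand.
Pgk1 (chrX:106186925-106186979, plus strand, 150 bases before the start): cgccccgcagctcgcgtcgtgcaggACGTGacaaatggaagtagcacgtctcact
Ldha (chr7:46845634-46845688, plus strand, 145 bases before the start): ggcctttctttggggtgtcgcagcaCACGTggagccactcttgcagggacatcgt
Bnip3 (chr7:138909585-138909639, minus strand, 108 bases before the start): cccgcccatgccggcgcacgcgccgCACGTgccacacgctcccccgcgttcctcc

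**Figure D3:**
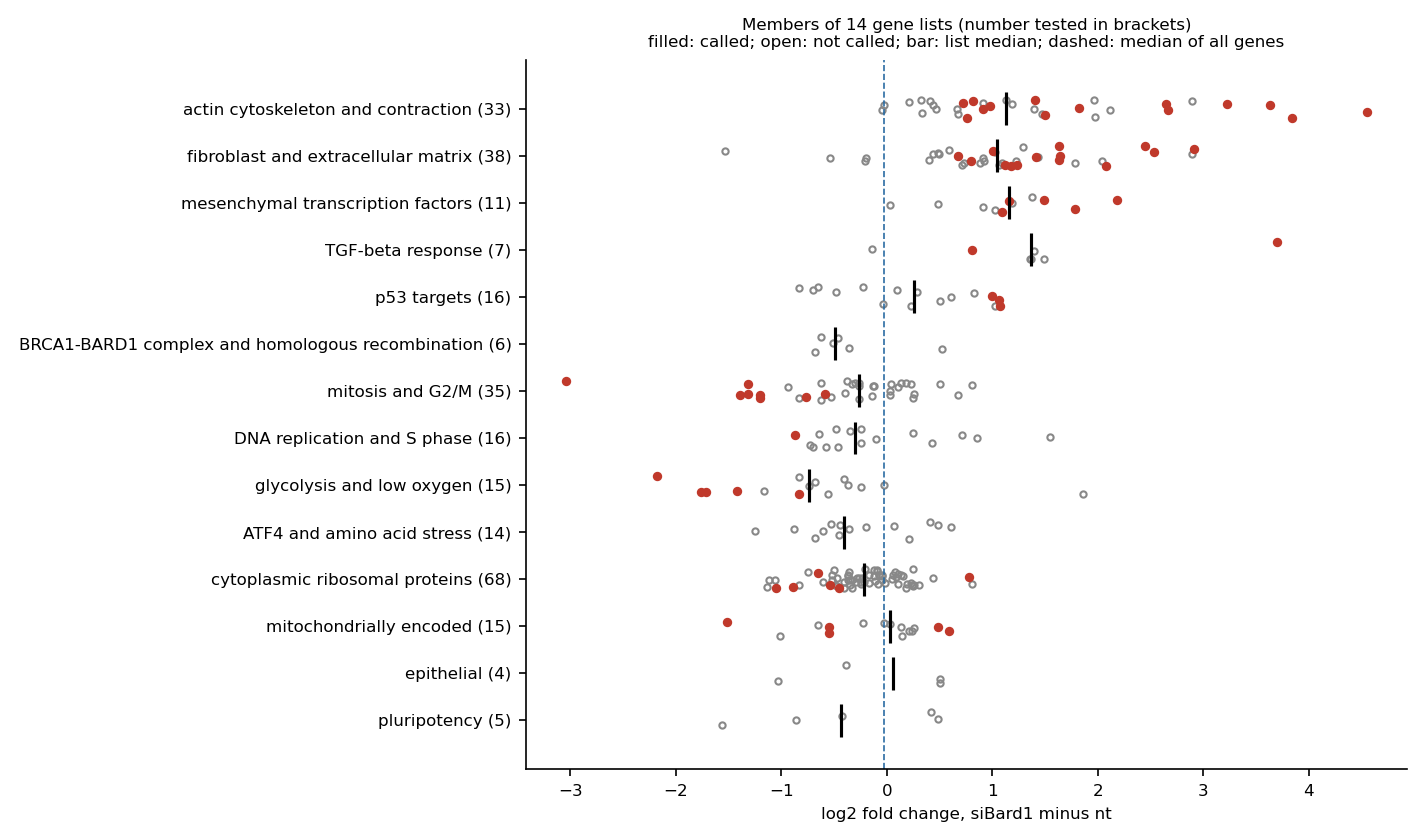
Log2 fold change of siBard1 over nt (x axis) for the tested members of 14 gene lists (y axis, number tested in brackets), with called members filled, the list median as a bar and the median of all genes dashed. The medians of the actin, matrix and mesenchymal factor lists lie at 1.13, 1.04 and 1.16, and that of glycolysis and low oxygen at -0.735.

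Mitotic genes fell in part. Of 69 listed genes of mitosis and G2/M 35 were tested, 0 were higher and 8 were lower than nt (Kif11, Smc2, Kif20b, Ncapg, Ube2c, Hmgb2, Top2a and Arl6ip1). The median of the 35 was -0.265 against nt but 0.138 against Mock, where 6 members were lower and 0 were higher, so the list had no common shift from both controls.

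Smc2, a core subunit of condensin, measured 112, 223 and 285 CPM in siBard1 and 433, 538 and 719 CPM in nt (log2 fold change -1.39 ± 0.26, adjusted p = 2.59e-05). Kif11, the motor that separates spindle poles, measured 31.9, 17.1 and 0 CPM in siBard1 and 167, 74.8 and 98.0 CPM in nt (-3.04 ± 0.74, adjusted p = 0.0019). It stood on 3 molecules in siBard1, with nt 9.57 times as high (counting interval 2.94 to 49.3), and lost its call without siBard1 replicate 3 at -2.24. Ncapg, another condensin subunit, fell by 1.32 (SE 0.37) and Hmgb2, a chromatin protein of dividing cells, by 1.20 (SE 0.35). Top2a, the mitotic topoisomerase, fell by 0.77 (SE 0.25) against nt and differed from Mock by 0.02 (adjusted p = 0.978). Hmgb2 has 1 near-identical copy in the annotation. Without all libraries of replicate 3, 1 of the 35 members was called. In that fit Ncapg stood at -0.89 (adjusted p = 0.348), Hmgb2 at -1.10 (adjusted p = 0.204) and Arl6ip1 at -0.48 (adjusted p = 0.217). Without all libraries of replicate 2, Top2a stood at -0.62 (adjusted p = 0.274) and Ube2c at -0.99 (adjusted p = 0.303).

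Of the genes of DNA replication and S phase, 16 of 61 were tested and 1 was lower than nt. It was Dut, the dUTPase, with 431, 411 and 243 CPM against 716, 808 and 441 CPM (log2 fold change -0.87 ± 0.23, adjusted p = 0.00556). That is 6.25% of the members tested, against 4.78% of all genes. Dut was not called without all libraries of replicate 2 (adjusted p = 0.0834) or of replicate 3 (adjusted p = 0.0583), nor without siBard1 replicate 3 (adjusted p = 0.0787). Against Mock its log2 fold change was -0.25 (adjusted p = 0.599).

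The list of the BRCA1-BARD1 complex and homologous recombination was mostly below the reach of the sequencing. Of 51 listed genes 6 were tested and 0 were called in either direction, with log2 fold changes from -0.68 to 0.52. The summed level of its members was 1569 ± 238 CPM in siBard1, 1764 ± 86.6 in nt (SD, n = 3 each) and 1711 ± 131 in Mock (SD, n = 5).

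Of 30 listed p53 targets 16 were tested, 3 were higher than nt and 0 were lower, against 5.54% and 4.78% of all genes, with a median of 0.26. Cdkn1a, the p21 inhibitor of cyclin-dependent kinases, measured 958, 668 and 722 CPM in siBard1 and 383, 404 and 343 CPM in nt (log2 fold change 1.06 ± 0.22, adjusted p = 0.000256). In Mock it measured 800, 515, 750, 770 and 254 CPM, overlapping both groups, and siBard1 differed from Mock by 0.45 (adjusted p = 0.162). Zmat3, an RNA-binding p53 target, and Phlda3, an inhibitor of Akt, rose by 1.07 ± 0.38 and 1.00 ± 0.32 against nt. When libraries were left out, 1 or 2 members were called. Zmat3 lost its call in all 9 of those fits (adjusted p = 0.066 to 0.249) and Phlda3 in 8 of them (adjusted p = 0.0595 to 0.219). Against Mock 0 of the 16 targets were called in either direction, so these genes were called against 1 of the controls only. Ccng1 and Mdm2, both well-known targets, did not pass the test against nt (-0.48, adjusted p = 0.0638, and 0.29, adjusted p = 0.667).

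Transcripts made in mitochondria moved in both directions. All 15 were tested, 2 were higher than nt (mt-Nd4 and mt-Co1) and 3 were lower (mt-Nd6, mt-Rnr1 and mt-Rnr2), against 5.54% and 4.78% of all genes. Against Mock 3 were higher and 7 lower, at backgrounds of 4.68% and 5.64%. mt-Rnr2, the large ribosomal RNA, measured 78950, 57060 and 47980 CPM in siBard1 and 105400, 85320 and 76010 CPM in nt (log2 fold change -0.55 ± 0.16, adjusted p = 0.0112). mt-Nd4, a subunit of complex I, measured 31520, 24790 and 18970 CPM against 21230, 14480 and 14350 CPM (0.59 ± 0.12, adjusted p = 0.000225). Both genes overlapped between the groups in their plain levels, which differed by replicate number. The summed mitochondrial level was 270700 ± 57010 CPM in siBard1, 295900 ± 31020 in nt and 328300 ± 37680 in Mock, and its part in the other differences was not tested. Without all libraries of replicate 2, 1 of the 15 was called, and mt-Nd4 (adjusted p = 0.0954) and mt-Rnr2 (adjusted p = 0.0979) were not. Of 68 tested cytoplasmic ribosomal protein genes 1 was higher than nt (Rps2, 1.47%) and 5 were lower (7.35%), against 5.54% and 4.78% of all genes, with a median of -0.214. Against Mock 1 was higher and 12 were lower, at backgrounds of 4.68% and 5.64%, with a median of -0.285. The number called against nt was 0 without all libraries of replicate 1 or of replicate 3, and without siBard1 replicate 3 or nt replicate 3. Rps2 has 33 near-identical copies in the annotation.

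The later programs were hardly within reach. Of 40 epithelial genes 4 were tested, of 44 pluripotency genes 5, of 41 interferon response genes 1, and of 31 genes of ATF4 and amino acid stress 14, and 0 members of these lists were called against nt or Mock. The summed level of the epithelial list was 1225 ± 467 CPM in siBard1 and 1254 ± 203 in nt, and that of the pluripotency list 854 ± 131 and 1050 ± 74.8 (SD, n = 3 each). The interferon response list summed to 484 ± 130 CPM in siBard1 (403 to 634), 303 ± 22.1 in nt (283 to 327) and 370 ± 37.0 in Mock (323 to 418, n = 5). Its siBard1 libraries lay above those of nt and overlapped those of Mock, and these sums were not tested.

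Markers of the labelled cell type were the highest of all marker lists in siBard1. The fibroblast markers, 9 of 11 tested, summed to 4401 CPM in siBard1 (3889 to 5078), 2671 in nt (2238 to 3231) and 3042 in Mock (2582 to 3920), and 5 of the 9 were higher than nt and 0 lower. Those 5 were Sparc, Col1a1, Col1a2, Thy1 and Vim. All are also called members of the matrix list above, so they are not a separate result. Of the markers of other cell types only 1 of macrophages and 3 of neural cells were tested, and 0 of these were called. Their summed means in siBard1, nt and Mock were 59.1, 5.45 and 22.1 CPM for skeletal muscle, 304, 283 and 409 for neural cells, 30.6, 21.0 and 21.3 for macrophages and 18.3, 19.3 and 13.7 for endothelium. They were 41.4, 126 and 98.3 CPM for epithelium, 55.9, 81.4 and 95.5 for pluripotent stem cells and 2.31, 35.5 and 5.77 for erythroid cells. The epithelial markers ran from 0 to 68.5 CPM in siBard1 and from 105 to 150 CPM in nt, without overlap, and from 24.8 to 206 CPM in Mock. The skeletal muscle markers ran from 27.8 to 85.7 CPM in siBard1 and from 0 to 16.3 CPM in nt, also without overlap, and from 0 to 51.6 CPM in Mock. These sums stood on 12 and 31 molecules in siBard1 and nt for epithelium and on 13 and 2 for skeletal muscle. The part of these cells in the other differences was not tested.

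The second control returned the same number of calls. Against Mock, 311 genes (10.3%) differed, 141 higher in siBard1 and 170 lower. Genes called in the same direction against both controls numbered 153 (5.08% of the genes tested), 83 higher (2.75%) and 70 lower (2.32%), and the comparisons share the siBard1 libraries. These were 49.7% of the genes higher than nt and 58.9% of those higher than Mock, and 48.6% and 41.2% of those lower. The 167 genes higher than nt had a median log2 fold change of 1.36 against nt and 0.865 against Mock, and the 144 lower genes of -1.2 and -0.901. As these genes were chosen on the nt comparison, nothing is read from the smaller medians against Mock. One predicted gene, Gm13408, was called in opposite directions (0.75 and -0.54). Among the genes with the largest changes against nt, Gorasp2, Zbtb20, Ttc28, Puf60 and Pmp22 were not called against Mock, nor were Abce1, Usp16, Ilf2, Eef1e1, Mrps22 and Higd1a. Abce1, a ribosome recycling factor, measured 95.8, 51.4 and 76.4 CPM in siBard1, 233, 329 and 261 CPM in nt, and 51.6, 68.7, 86.5, 49.7 and 164 CPM in Mock. The siBard1 and Mock libraries overlapped and the nt libraries lay above both. It measured 145, 159.6 and 177 CPM in siBrca1, above every siBard1 library, without passing the test (-1.10, adjusted p = 0.365), and siBard1 differed from Day06 by -1.02 (adjusted p = 0.104). The calls against Mock numbered 171 without the block and 159 without siBard1 replicate 3. They numbered 164, 205 and 130 without all libraries of replicates 1, 2 and 3. With Mock libraries of the same number summed into 1, an alternative added after the data had been seen, 285 genes were called, 119 higher and 166 lower.

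The lowered genes differed from the raised ones in kind. Predicted genes and pseudogenes made up 41% of the 144 lower genes, 4.19% of the 167 higher genes and 19.3% of all genes tested. At least 50% of the 31-base words of the transcript's last 400 bases also occurred in another gene for 48 of 137 lower genes found in the annotation (35%) and for 20 of 166 higher genes (12%). Reads of such genes can be assigned to either copy.

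Few genes separated siBard1 from siBrca1, the cells given siRNAs against its partner. Brca1 itself had 1, 1 and 2 counts in the siBrca1 libraries, against 0, 1 and 1 in nt, so the level of the target is no check of that label either. In all, 26 genes (0.863%) differed between siBard1 and siBrca1, 6 higher in siBard1 (0.199%) and 20 lower (0.664%), with 276 at an unadjusted p under 0.05. Under median-ratio size factors the split was 12 higher and 21 lower, and with DESeq2 it was 11 higher and 18 lower. The median standard error of a log2 fold change was 0.475, so smaller differences would have been missed and the low count does not show that the siRNAs act alike. Predicted genes or pseudogenes made up 3 of the 5 higher and 16 of the 20 lower genes with at least 100 CPM in a group. Characterised genes among the calls were mt-Nd4 (0.79, adjusted p = 5.11e-07) and mt-Nd5 (0.75, adjusted p = 4.71e-05), higher in siBard1, and the mitochondrial aspartate tRNA mt-Td (-2.67, adjusted p = 0.00455), the HSP90 co-chaperone Cdc37 (-1.93, adjusted p = 0.0295) and the snoRNP assembly factor Znhit6 (-1.80, adjusted p = 0.0448), all lower. Against nt, siBrca1 was higher for Znhit6 (1.62, adjusted p = 0.0345) and lower for mt-Nd5 (-0.53, adjusted p = 0.01). It was not called for mt-Nd4 (-0.20, adjusted p = 0.459), mt-Td (0.33, adjusted p = 0.809) or Cdc37 (0.97, adjusted p = 0.255). When libraries were left out, siBard1 minus nt ran from -0.47 to 0.09 for Znhit6 and from 0.07 to 0.35 for mt-Nd5. The number called between siBard1 and siBrca1 was 16 without siBard1 replicate 1 or without all libraries of replicate 3, 17 without siBrca1 replicate 3, and 15 without the replicate block.

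Set beside nt, the siBrca1 libraries differed in 127 genes (4.22%), with 75 genes higher (2.49%) and 52 lower (1.73%), a comparison that uses the same nt libraries as that of siBard1. The actin list had 7 members higher and 0 lower in siBrca1 against 14 and 0 in siBard1, and the matrix list 7 higher and 1 lower against 14 and 0. The siBrca1 libraries were shallower, with 47592 to 91364 counted molecules against 68229 to 152976, and the difference between these counts was not tested. The glycolysis and low-oxygen list had 1 higher and 5 lower against 0 and 5. Thbs1 was higher than nt by 2.12 in siBrca1 and 2.08 in siBard1, and Pgk1 lower by -1.34 and -1.71. For Acta2 the values were 2.11 and 2.65, and the difference between siBard1 and siBrca1 was 0.55 (adjusted p = 0.652).

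The same genes were read against normal reprogramming, in a comparison that shares no library with siBard1 against nt. Between Day00 and Day06, 668 genes (22.2%) changed, 321 upwards (10.7%) and 347 downwards (11.5%). Of the 167 genes higher in siBard1, 66 (39.5%) were lower on Day06 than on Day00 and 12 (7.19%) were higher. Of the 144 genes lower in siBard1, 32 (22.2%) were higher on Day06 and 9 (6.25%) were lower. Across the 3013 genes the log2 fold changes of the pair of comparisons had r = -0.313, and across the 311 called genes r = -0.417. These correlations are across genes, which are not independent replicates, and both sets of values came from a single model. The first share held under median-ratio size factors (83 of 193, 43% against 14.3% of all genes). The second did not hold at its size, with 16 of 119 (13.4% against 7.6%), and that scaling lies lower by over 0.1 in the median of all genes in the time course.

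**Figure D4:**
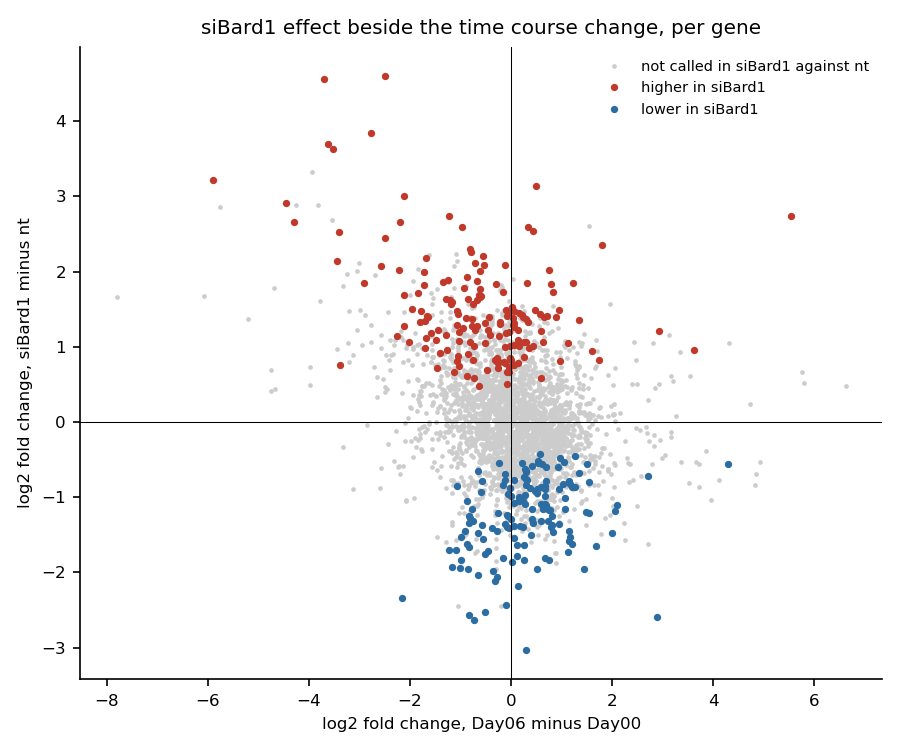
Log2 fold change of siBard1 over nt (y axis) against that of Day06 over Day00 (x axis), a point per gene tested, with genes called in siBard1 against nt coloured. Of the 167 called higher, 66 were lower on Day06 than on Day00, and r over all 3013 genes was -0.313.

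Individual genes showed the pattern with different end points. Acta2 stood at 4046 ± 821 CPM on Day00 and 220 ± 158 on Day06 (SD, n = 3 each), so its 418 ± 144 in siBard1 was close to the end of the fall and far from the fibroblast level. Thbs1 stood at 3704 CPM on Day00, 641 on Day06 and 993 in siBard1. Fbn2, a fibrillin of elastic microfibrils, and Cdsn, the adhesive protein corneodesmosin, went the other way, from 44.6 CPM to 160 and from 0 to 84.2 over the time course. Fbn2 measured 160, 223 and 146 CPM in siBard1 against 16.7, 29.9 and 40.9 CPM in nt (log2 fold change 2.35 ± 0.56), and Cdsn 224, 154 and 97.2 CPM against 16.7, 29.9 and 16.3 CPM (2.74 ± 0.67). The risen genes thus included some that also rose over the untransfected time course.

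In the summed levels of the actin and matrix lists siBard1 lay nearer to the untransfected Day06 cells than to Day00. The actin list summed to 34130 ± 2711 CPM on Day00, 9841 ± 651 on Day06, 6765 ± 780 in nt, 6958 ± 619 in Mock, 9499 ± 1198 in siBrca1 and 11940 ± 1423 in siBard1. The matrix list summed to 25580 ± 1599, 8988 ± 1193, 5639 ± 672, 6993 ± 700, 10190 ± 645 and 10990 ± 1178 CPM in the same order (SD, n = 3, and 5 for Mock). For both lists the nt and Mock libraries lay below every library of Day06, and siBard1 lay above that range for the actin list and overlapped it for the matrix list. The glycolysis and low-oxygen list summed to 5788 ± 382 CPM on Day06, between 7550 ± 690 in nt and 4185 ± 730 in siBard1, with 6170 ± 589 in Mock. The mesenchymal factors summed to 4680 ± 948 CPM in siBard1 (3742 to 5637), between the 6172 ± 429 of Day00 and the 2959 ± 193 of Day06 and overlapping neither.

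**Figure D5:**
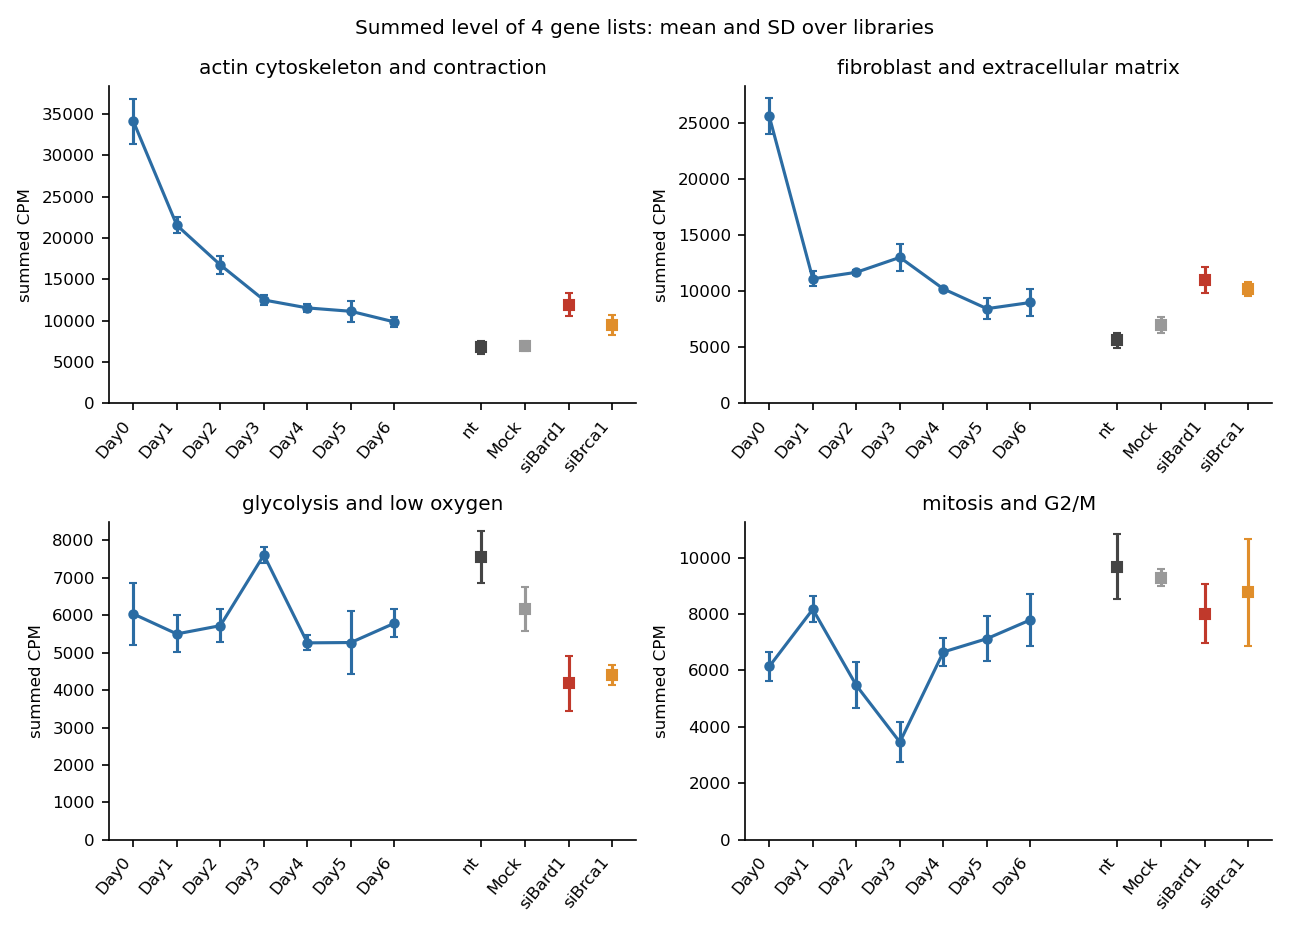
Summed CPM of 4 gene lists (y axes from 0), as the mean and SD over libraries, on each day of the untransfected time course (circles, n = 3) and on day 6 in nt, Mock, siBard1 and siBrca1 (squares, n = 3, and 5 for Mock). The actin sum falls from 34130 on Day00 to 9841 on Day06 and stands at 6765 in nt and 11940 in siBard1.

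With Day06 in place of nt, a comparison added after the data had been seen, 219 genes were higher (7.27%) and 130 lower (4.31%) in siBard1. The siRNA cannot there be told apart from transfection and handling. Of the 167 genes higher than nt, 32 were higher and 2 lower than Day06, and of the 144 lower than nt, 16 were higher and 19 lower than Day06. These genes were chosen with the same siBard1 libraries. A shared direction is therefore in part built in and is not read as support. The actin list had 6 members higher and 0 lower, the matrix list 3 and 0, the mesenchymal factors 3 and 0, and glycolysis and low oxygen 0 and 3. The nt libraries themselves differed from Day06 in 802 genes (26.6%), 15.6% higher and 11% lower, with 1 actin member higher and 9 lower, 1 matrix member higher and 13 lower, and 14 of the 15 mitochondrial transcripts higher. These comparisons share the Day06 libraries.

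Timp2 (0.82, adjusted p = 0.00117), Hmga2 (0.95, adjusted p = 3.08e-05), Thbs1 (0.72, adjusted p = 0.0125), Acta2 (0.98, adjusted p = 0.0173), Prrx2 (1.27, adjusted p = 0.0179) and Myl9 (1.84, adjusted p = 0.0188) were higher in siBard1 than on Day06 as well as than in nt and Mock. Ldha was lower than all of these (-0.68 against Day06, adjusted p = 0.0117). The comparisons with Day06, nt and Mock all use the same siBard1 libraries. Sparc was not called against Day06 (0.07, adjusted p = 0.868), and it was nt that lay 1.34 below Day06 on the log2 scale. Pgk1 and Bnip3 did not fall below Day06 either (0.15, adjusted p = 0.761, and 0.82, adjusted p = 0.287). There nt lay above Day06 by 1.86 for Pgk1 and 3.00 for Bnip3. The part of transfection and handling in the differences of siBard1 from nt and Mock was not tested.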

How the data were processed

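The authors made CEL-Seq2 libraries from the RNA of each culture, aligned reads to mm10 and deposited a table of molecule counts per gene with 1 column per library, together with log2 values normalised and corrected for replicate by them. Each GEO sample was the sequenced pool of all libraries of 1 replicate number, and the condition was read from the column name. A number therefore marks a shared pool. The deviations of siBard1 and nt libraries of the same number correlated at 0.124, 0.125 and 0.268, so the number was kept as a block. Libraries the authors had removed were left out.

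Counts of 127 libraries were fitted with edgeR's quasi-likelihood test (version 4.0.16, R 4.3.3, limma 3.58.1), with TMM factors, a term per condition, the replicate block, filterByExpr and a Benjamini-Hochberg threshold of 0.05, which left 3013 genes. Each SE was computed from the fold change and its test statistic. The scripts were tested on simulated data. Intervals and limits cover counting error only. Alternatives are given in the closing section, including DESeq2 1.42.0 and limma on the deposited log2 values.

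The text names, per direction, the 12 characterised genes with a mean of at least 100 CPM in a group and the largest changes, up to 8 called members per list, and up to 5 per direction against siBrca1. Others (Zeb1, Twist2, Aldoa, Ccng1, Mdm2) are listed members chosen after their values were seen. The groups and the 15 gene lists and 8 marker lists were chosen with earlier results of these data known. RefSeq and GENCODE annotations of GRCm38 were used for sequences. One gene that met the naming rule is not reported here.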

Additional observations from a re-analysis of the deposited data

Results flagged for a closer look

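In the group of 5 Mock libraries, the only group compared here with more than 3, the values of 76 genes were checked for a library far from the others by Dixon's 95% critical value of 0.71, which chance passes in about 1 of 20 groups. A library stood apart for 4 of them. Brca1 was at 25.8 CPM, a single molecule, in Mock 1A and at 0 in the others. Rps2, which encodes a ribosomal protein, was at 412 CPM in Mock 1B and at 174 to 209 in the others. Tagln, which encodes the actin-binding transgelin, was at 86.5 CPM in Mock 2A and at 0 in the others. mt-Nd5, a subunit of complex I, was at 9150 CPM in Mock 3B and at 13300 to 14800 in the others.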

How the results depend on the processing

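The number of calls depended on the processing. Against nt (311 genes) they numbered 264 with DESeq2 and 312 with median-ratio size factors, 94 with no filter on low counts, 39 with limma on the deposited log2 values, 178 with no replicate block and 94 to 297 when libraries were left out. Against Mock (311) the values were 265 and 310, then 121, 22 and 171, and 130 to 290. Against siBrca1 (26) they were 29 and 33, then 22, 15 and 15, and 16 to 26. Genes higher in siBard1 that fell during reprogramming (66) numbered 69, 83, 23 with no filter, 43 with no replicate block and 25 to 39. Genes lower in siBard1 that rose (32) numbered 12 with DESeq2, 16 with median-ratio size factors, 12, 8 and 5 to 19. Bard1 had 0 counts under every alternative.

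Over 74 named genes, 886 of 1293 values under an alternative kept direction and call, 380 kept direction alone, 3 gained a call and 24 changed sign. With Day06 as the control, chosen after seeing the data, the log2 fold change was -0.17 for Actn1, 0.13 for Arl6ip1, 0.82 for Bnip3, -0.25 for Cdkn1a, -0.22 for Col1a1, -0.12 for Col1a2, -0.07 for Fstl1, 0.04 for Higd1a, 0.84 for Hmgb2, 0.52 for Hmgn5, 0.13 for Kif20b, 0.02 for Mrps22, 0.15 for Pgk1, 0.64 for Rps14, -0.07 for Rps2, 0.26 for Rps20, -0.18 for Zbtb20, -0.12 for Zmat3, 0.03 for Znhit6, 0.62 for mt-Nd6, 0.13 for mt-Rnr1 and 0.90 for mt-Rnr2, the opposite of their signs against nt. Rps14 (adjusted p = 0.0132) and mt-Rnr2 (3.42e-06) were called there. Znhit6 (-0.19) ranged from -0.47 to 0.09 when libraries were left out, and was at 0.07 without replicate 1. Depth left most genes of DNA repair, epithelium and pluripotency untested. The cause of these changes was not tested, apart from the loss of libraries in the fits that left some out.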

Other observations

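The following genes lay outside the lists and were chosen after their values were seen. Grem1, a secreted BMP antagonist, was higher in siBard1 by 1.33 against nt (edgeR, adjusted p = 4.65e-06) and by 1.82 against Mock (adjusted p = 1.00e-09). Sfrp1, a secreted Wnt inhibitor, was higher by 1.21 and 1.45, and Wnt5a, a non-canonical Wnt ligand, by 1.85 and 1.67. Cav1, the coat protein of caveolae, was higher by 1.20 and 1.70, Vcam1, a cell adhesion receptor, by 1.46 and 1.51, and Lmna, which encodes the A-type lamins of the nuclear envelope, by 1.22 and 1.13. Ctsb, a lysosomal protease, was higher by 1.07 and 1.11. Npm1 and Nop58, which act in ribosome assembly in the nucleolus, were lower by -0.68 and -0.67 and by -0.90 and -0.88. All of these were called against both controls.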
